A study of Mus musculus with 4 samples.

Results

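Clusterin and a set of genes linked to the transcriptional co-activator YAP were followed in MC38 cells, a mouse line described by its depositors as colon adenocarcinoma, on 4 arrays. The set held 10 genes, namely Clu, Ly6a, Anxa1, Ccn1, Ccn2, Ankrd1, Amotl2, Areg, Ereg and Yap1, found by their symbols in the platform annotation. Of the 10 genes 8 were measured, each by 1 probe set, among 19505 named genes. Ly6a and Areg were not listed in that annotation and were not analysed here. The set was chosen by the difference in Clu signal between knockout and control cells on these arrays, and the other genes were added with those results known, so for all 10 the difference between knockout and control is given as a description and not as a test.

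The knockout cells were clone 1 and clone 2, a pair of MC38 clones in which Mgat5 was disrupted with CRISPR-Cas9, and the controls were MOCK, MC38 cells given an empty vector, and WT, the control condition of the same line with no vector named. Each clone and each control was hybridised to 1 Clariom S mouse array, so n = 2 arrays per group. Mgat5 encodes a Golgi glycosyltransferase that starts a branch of complex N-glycans. The cell characteristic reads as knockout even for MOCK and WT, and the groups were therefore taken from the sample titles. Both knockout arrays came from single clones and neither control is titled as one, so an effect of cloning and an effect of Mgat5 loss cannot be told apart. No label says whether the arrays came from separate cultures, and p-values measure the spread between these 4 arrays only.

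In injured intestine, surviving epithelial cells can enter a regenerative state that resembles the fetal gut. Clu marks the revival stem cells of that state, Ly6a (the surface protein Sca-1) and Anxa1 mark the wound-associated epithelium, and the state depends on YAP, which enters the nucleus when the Hippo kinases are inactive and binds DNA through the TEAD factors. Ccn1, Ccn2, Ankrd1 and Amotl2 are common readouts of YAP and TEAD activity, and Areg and Ereg encode ligands of the EGF receptor that YAP can induce.

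Values are the deposited log2 signals. The features named as negative controls had medians of 5.16 in clone 1, 5.20 in clone 2, 5.22 in MOCK and 5.12 in WT, with 75th percentiles from 6.29 to 6.56, and signals at these levels were read as background. The WT array was compressed at its upper end: its 99th percentile over 22206 probe sets was 14.7, against 15.8 in clone 1, 15.8 in clone 2 and 15.9 in MOCK. The median difference over all probe sets, knockout minus control, was 0.18 log2 units as deposited and -0.02 after quantile normalization, which gives every array the same distribution. As deposited 14460 of the 22206 probe sets were higher in the knockout, and 10723 were after quantile normalization. Differences in both scalings are given for the members detected above background, and for other genes and lists where stated. All other values, counts and limma results are as deposited. Mgat5 itself stood at 7.46 in clone 1 and 7.57 in clone 2, against 8.19 in MOCK and 8.27 in WT, an order that goes with the titles, although its difference of -0.71 (SE 0.37) did not pass the limma test (adjusted p = 0.631). After quantile normalization the Mgat5 difference was -1.11.

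The epithelial label of the line was checked against marker genes. All 9 epithelial markers, among them Epcam, Cdh1, Krt8, Krt18 and Krt19, stayed at or below the 75th percentile of the negative controls on each of the 4 arrays, with the highest value at 5.86 for Krt8 in WT. Cdx1, Cdx2 and Vil1, which define intestinal epithelium, and Lgr5, the receptor that marks crypt base stem cells, were likewise at background on all arrays. Sox9, a transcription factor of progenitor cells, was at 13.56 in clone 1, 14.75 in clone 2, 14.29 in MOCK and 13.96 in WT. Of 8 measured fibroblast markers 3 were above the median of the negative controls on all arrays, namely Pdgfrb, between 11.42 and 12.02, Col3a1, between 10.75 and 11.80, and Dcn. Another 3 (Col1a1, Lum and Thy1) were at background on all arrays. The term regenerative is used below for the genes' known roles, since epithelial identity genes were not detected above background in any of these cells. All 6 measured immune and all 6 measured endothelial markers were at or below the same level.

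Clu was the member with the widest separation. It encodes clusterin, a heavily glycosylated secreted chaperone that binds misfolded proteins outside the cell. Its signal was 13.09 in clone 1 and 13.73 in clone 2, against 8.14 in MOCK and 8.33 in WT. The groups were far apart: the lower clone lay 4.76 log2 units above the higher control, while the clones differed from each other by 0.64 and the controls by 0.19. The mean was 13.41 ± 0.45 in the knockout and 8.23 ± 0.14 in the controls (SD, n = 2 each), a difference of 5.18 log2 units (SE 0.40). That was the largest of all 22206 probe sets, and it was also the largest after quantile normalization, where it was 4.74 (SE 0.35). In bulk RNA, more cells making a transcript and more transcript per cell cannot be told apart. Clu was the single member called by limma at an adjusted p under 0.05, 1 of 8, where 0.0405% of all probe sets were called as deposited and 0.0045% after quantile normalization, when Clu was again the member called. Since the difference of Clu chose the set, this count is no test of it. Without MOCK or without WT the call of Clu was lost, with differences of 5.08 and 5.28, and its difference ran from 4.86 without clone 2 to 5.50 without clone 1. Of 8 measured fibroblast markers 5 were higher and 3 lower in the knockout, with a median of 0.45, or 0.19 after quantile normalization. Dcn had the largest difference of the 8 in size, at -3.22. The summed signal of the 8 was 12.64 in clone 1 and 13.12 in clone 2, against 13.82 in MOCK and 14.21 in WT on the log2 scale. Their part in the Clu difference was not tested.

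**Figure D1:**
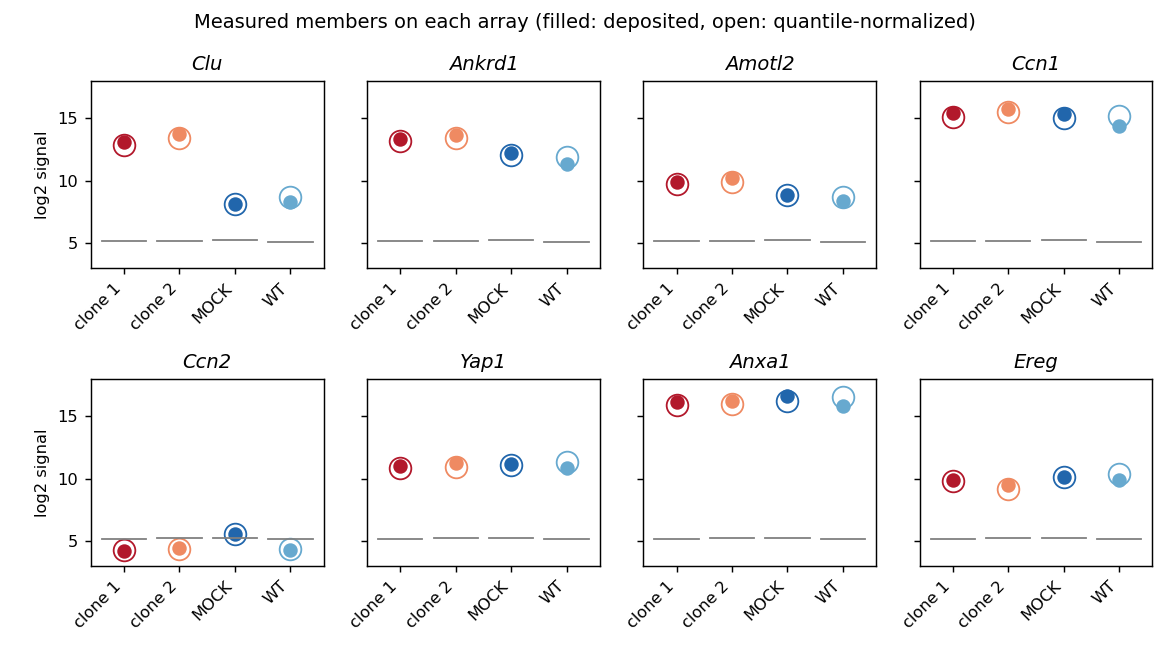
Log2 signal (y axis) of the 8 measured members in clone 1, clone 2, MOCK and WT, with filled points as deposited, open circles after quantile normalization, and grey lines at the median of the negative controls of each array. Clu sits above 13 in both clones and below 9 in both controls, Ankrd1 and Amotl2 are higher in both clones by smaller amounts, and Ccn2 lies near the grey lines.

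Among the YAP and TEAD readouts, Ankrd1 and Amotl2 were higher in both clones under both scalings. Ankrd1 encodes a nuclear ankyrin repeat protein of stretched muscle and injured tissue. It stood at 13.38 in clone 1 and 13.70 in clone 2, against 12.21 in MOCK and 11.33 in WT. The lower clone exceeded the higher control by 1.17 log2 units, more than the 0.88 between MOCK and WT. The knockout minus control difference was 1.77 (SE 0.42), or 3.40-fold, and 1.32 (SE 0.31) after quantile normalization. Leaving out each array in turn gave differences of 1.33 to 2.21.

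Amotl2 encodes angiomotin-like 2, a junction protein that binds YAP and holds it in the cytoplasm, and its gene is itself induced by YAP. Its signal was 9.87 in clone 1 and 10.20 in clone 2, against 8.86 in MOCK and 8.35 in WT. These groups did not overlap either, with 1.01 log2 units between the nearest arrays. The difference was 1.43 (SE 0.39), or 2.69-fold, and 1.01 (SE 0.30) after quantile normalization, with a range of 1.17 to 1.69 as each array was left out.

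Ccn1, formerly Cyr61, encodes a secreted matrix protein that signals through integrins. It stood at 15.41 in clone 1 and 15.72 in clone 2, against 15.38 in MOCK and 14.39 in WT. Clone 1 and MOCK were nearly equal, 0.03 log2 units apart, and the difference of 0.68 (SE 0.43) became 0.19 without WT. After quantile normalization WT stood at 15.23, between 15.12 in clone 1 and 15.49 in clone 2, and the difference was 0.16 (SE 0.31).

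Ccn2, formerly Ctgf, is the connective tissue growth factor of fibrosis and wound repair. Its probe set read 4.18 in clone 1 and 4.41 in clone 2, against 5.53 in MOCK and 4.26 in WT. All these values were below the 75th percentile of the negative controls, and MOCK alone was above their median, so Ccn2 was not detected above background in any group and no fold is given for it.

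Yap1, the co-activator itself, differed little. It stood at 11.00 in clone 1 and 11.26 in clone 2, against 11.13 in MOCK and 10.81 in WT, and the clones and controls overlapped. The difference was 0.16 (SE 0.38), near the median of 0.18 over all probe sets, and -0.28 (SE 0.30) after quantile normalization. An array reads transcript level and not the nuclear location of the protein.

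The promoters of these genes are shown because TEAD factors bind the letters GGAATG, or CATTCC on the other strand, and YAP acts through them. RefSeq promoters (GRCm38.p6) were available for 6 of the 10 genes, and the 250 bases before each annotated start were searched for these letters on both strands, shown in capitals below. The windows of Ankrd1, at chr19:36119845-36120094 on the minus strand, Amotl2, at chr9:102717554-102717803 on the plus strand, and Ccn1, at chr3:145649986-145650235 on the minus strand, come first as the classical readouts. Anxa1, at chr19:20390672-20390921 on the minus strand, is added as a gene whose clone values lay between those of the controls as deposited.
Ankrd1: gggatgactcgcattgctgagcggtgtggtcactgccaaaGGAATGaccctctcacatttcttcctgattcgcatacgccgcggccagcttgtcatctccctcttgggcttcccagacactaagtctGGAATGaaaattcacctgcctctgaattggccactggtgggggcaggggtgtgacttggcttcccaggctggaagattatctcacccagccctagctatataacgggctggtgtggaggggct
Amotl2: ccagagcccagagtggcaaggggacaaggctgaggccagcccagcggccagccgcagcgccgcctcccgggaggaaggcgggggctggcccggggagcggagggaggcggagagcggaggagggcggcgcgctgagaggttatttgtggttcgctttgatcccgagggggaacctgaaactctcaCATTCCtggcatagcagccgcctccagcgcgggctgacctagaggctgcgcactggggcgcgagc
Ccn1: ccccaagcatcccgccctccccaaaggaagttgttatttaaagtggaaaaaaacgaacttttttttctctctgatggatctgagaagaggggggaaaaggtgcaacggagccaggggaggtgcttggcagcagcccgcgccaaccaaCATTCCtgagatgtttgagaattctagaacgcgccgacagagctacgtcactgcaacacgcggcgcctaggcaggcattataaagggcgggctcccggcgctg
Anxa1: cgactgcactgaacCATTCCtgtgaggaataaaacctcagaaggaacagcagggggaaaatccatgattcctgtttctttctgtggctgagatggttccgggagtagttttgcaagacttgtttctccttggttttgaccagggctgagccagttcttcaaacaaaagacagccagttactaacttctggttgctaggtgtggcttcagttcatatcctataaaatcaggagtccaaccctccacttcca

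The letters occurred at 210 and 123 bases before the start of Ankrd1, at 65 in Amotl2, at 103 in Ccn1 and at 236 in Anxa1. They also occurred at 141 bases before the start of Yap1 and nowhere in the window of Areg. Of 32851 promoter windows of this length in the mouse table, 12.6% held them. That is a share of single windows, which came from 27025 genes. Counted by gene, with the letters in any of its windows, 5 of the 6 members with a window held them. Of the 15 genes of the wider target list below that had a window, 4 did. The AP-1 letters TGACTCA, or TGAGTCA, which often lie beside TEAD sites in enhancers, were in 0 of the 6 windows, where 4.46% of all windows held them. A match is a description of the sequence and says nothing about binding in these cells. Within this set the letters were present in Ankrd1 and Amotl2, higher in both clones under both scalings, and in Anxa1 and Yap1, whose clones overlapped the controls as deposited and lay below them after quantile normalization. Clu, Ccn2, Ereg and Ly6a were not in the table.

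Anxa1 and Ereg, the remaining measured members, were not higher in the clones. Anxa1 encodes annexin A1, a phospholipid-binding protein that limits inflammation and promotes wound closure. Its signal was 16.16 in clone 1 and 16.18 in clone 2, against 16.60 in MOCK and 15.79 in WT. The clones lay between the controls, and the difference was -0.03 (SE 0.41). After quantile normalization both clones were below both controls, with a difference of -0.41 (SE 0.30). Ereg encodes epiregulin, a ligand of EGFR and ERBB4. Its signal was 9.92 in clone 1 and 9.45 in clone 2, against 10.13 in MOCK and 9.90 in WT. Clone 1 and WT were 0.02 log2 units apart, and the difference was -0.33 (SE 0.39), or -0.75 (SE 0.34) after quantile normalization, when both clones were again lower.

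Counted over the 8 measured members as deposited, 4 had both clones above both controls (Clu, Ankrd1, Amotl2 and Ccn1), where 27.8% of all probe sets did, and 0 had both clones below, where 11.7% did. After quantile normalization 3 had both clones above, where 19.2% of all probe sets did, and 3 had both clones below (Anxa1, Ereg and Yap1), where 21.3% did. Without Clu, which chose the set, 3 of the 7 others had both clones above both controls as deposited and 0 had both below. After quantile normalization 2 of the 7 had both clones above and 3 had both below. The median difference of the 7 members other than Clu was 0.16 as deposited and -0.28 after quantile normalization, beside 0.18 and -0.02 for all probe sets. The order of Clu, both clones above both controls, was shared by Ankrd1 and Amotl2 in both scalings and by Ccn1 in the deposited values only. Anxa1, Ereg and Yap1 did not share it. Clone 2 was above clone 1 by 0.64 log2 units for Clu, 0.33 for Ankrd1, 0.33 for Amotl2 and 0.32 for Ccn1 as deposited, and also, by less, for Yap1, Anxa1 and Ccn2, while Ereg was 0.46 lower. The median over all probe sets was likewise higher in clone 2, at 5.62, than in clone 1, at 5.45. With 1 array per clone these differences between clones have no test.

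**Figure D2:**
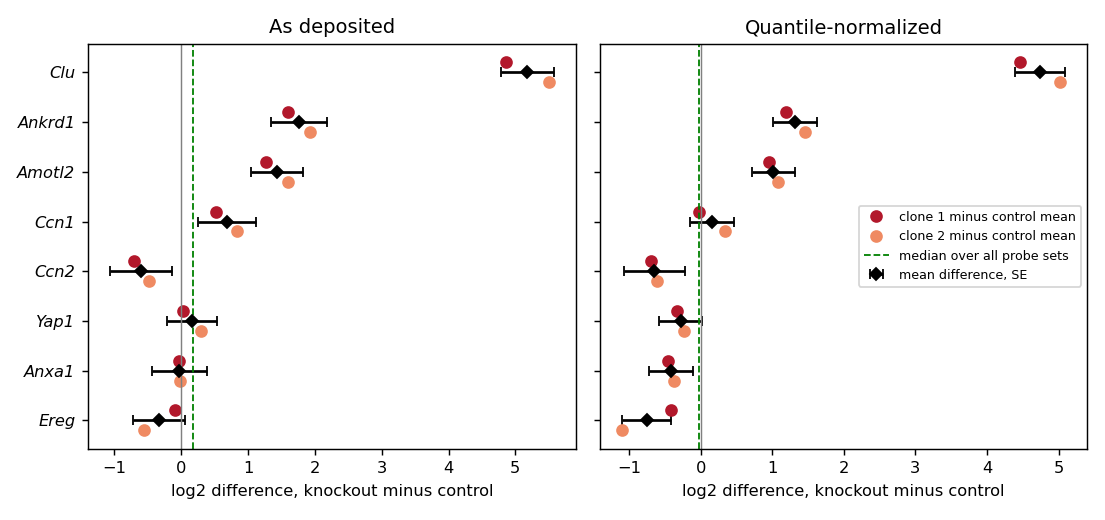
Log2 difference, knockout minus control (x axis), for the 8 measured members as deposited (left) and quantile-normalized (right): black diamonds with bars give the mean difference and its SE, coloured points each clone minus the mean of MOCK and WT, and the dashed line the median over all probe sets. Clu lies near 5, Ankrd1 and Amotl2 between 1 and 2 in both panels, and the others fall nearer to 0 or below it; the Ccn2 values are at background.

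A wider list of 22 genes reported as YAP and TEAD targets, beyond the members, was measured in full. As deposited 16 were higher and 6 lower, with a median of 0.38, where 14460 of all 22206 probe sets were higher, with a median of 0.18. Both clones were above both controls in 12 (54.5%), against 27.8% of all probe sets. Limma called 0 of them, and 8 were higher and 1 lower at an unadjusted p under 0.05, where 7.54% and 1.22% of all probe sets were. After quantile normalization 12 were higher, the median was 0.18, and 8 had both clones above both controls, where 19.2% of all probe sets did. As deposited 3 had both clones below both controls, where 11.7% of all probe sets did. After quantile normalization 5 did, where 21.3% of all probe sets did. At an unadjusted limma p under 0.05, 5 were then higher and 2 lower, where 1043 and 937 of all 22206 were. The quantile-normalized median was 0.34 for clone 1 minus the control mean and 0.07 for clone 2. Without MOCK the deposited median was 0.58 and without WT it was 0.31. Of the 22 genes, 6 stayed at or below the 75th percentile of the negative controls on all arrays. Among all 22206 probe sets 11915 did. On all arrays 16 of the 22 were above the median of the negative controls, against 10655 of all probe sets. The shares over all probe sets are therefore not matched to the list in signal.

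Ajuba, a LIM protein that restrains the Hippo kinases, stood at 10.22 in clone 1 and 11.75 in clone 2, against 8.22 in MOCK and 8.80 in WT. Its difference of 2.47 (SE 0.51) did not pass (limma adjusted p = 0.144), and after quantile normalization it was 2.04. Gadd45a, a growth arrest and DNA damage gene, stood at 10.39 in clone 1 and 10.56 in clone 2, against 8.77 in MOCK and 7.97 in WT. The difference was 2.11 (SE 0.41, limma adjusted p = 0.121), and 1.71 after quantile normalization. In both genes all clone values were above all control values.

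F3, which encodes tissue factor, the starter of the clotting cascade, was at 10.84 in clone 1 and 11.40 in clone 2, against 9.87 in MOCK and 9.11 in WT, a difference of 1.63 (SE 0.42, limma adjusted p = 0.272). Tgfb2, a secreted growth factor, was at 8.17 in clone 1 and 8.92 in clone 2, against 7.08 in MOCK and 7.27 in WT, a difference of 1.37 (SE 0.41, limma adjusted p = 0.353). Outside the naming rule and chosen after their values were seen, Crim1, Dock5, Ptpn14, Amotl1 and Lats2 differed by 1.24, 1.04, 1.00, 0.90 and 0.77 log2 units, with both clones above both controls in each as deposited, though not for Dock5 and Ptpn14 after quantile normalization. Lats2 is a Hippo kinase, and Ptpn14 and Amotl1 encode proteins that keep YAP out of the nucleus. In the other direction, and also chosen after its value was seen, Lhfpl2 stood at 7.96 in clone 1 and 7.38 in clone 2, against 8.51 in MOCK and 8.63 in WT. Axl, Myof and Asap1, targets well above background and chosen likewise, had clones and controls that overlapped as deposited, with differences of 0.47, -0.13 and 0.22. After quantile normalization these were -0.01, -0.59 and -0.26, and for Myof and Asap1 both clones were below both controls.

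**Figure D3:**
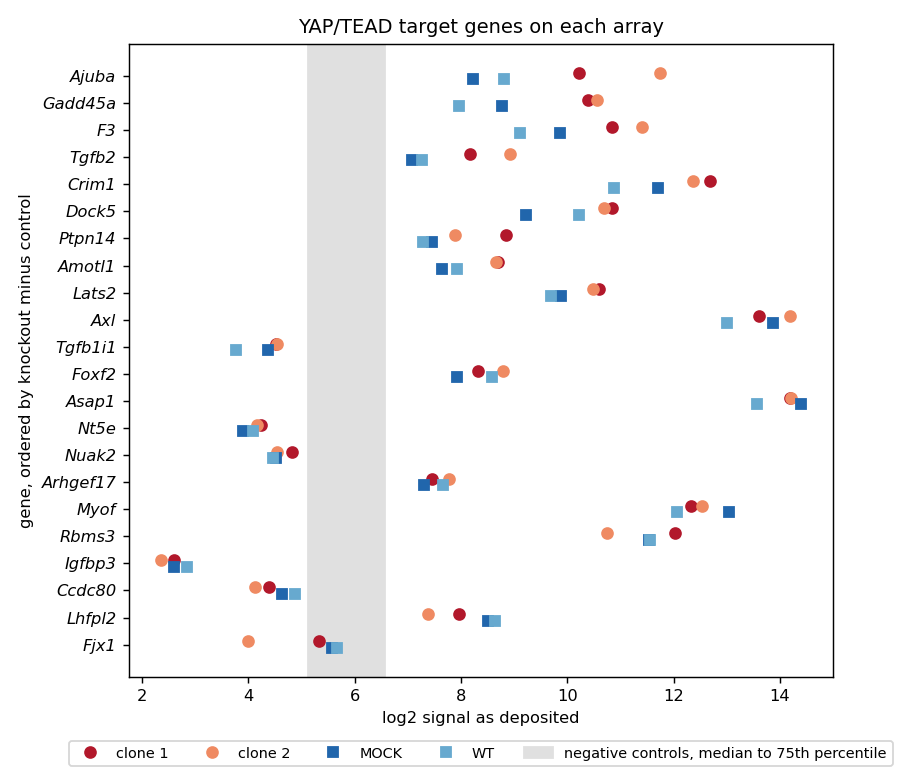
Deposited log2 signal (x axis) of the 22 genes of the YAP and TEAD target list (y axis, ordered by knockout minus control), with circles for clone 1 and clone 2, squares for MOCK and WT, and a grey band from the lowest median to the highest 75th percentile of the negative controls. In the upper rows, from Ajuba to Lats2, both circles lie right of both squares, while Lhfpl2 shows the opposite order and 6 genes lie in or left of the band on all arrays.

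The Hippo pathway genes themselves had a smaller median difference than the target list as deposited. After quantile normalization their median was similar in size to that of the targets and opposite in sign. Of 22 listed 21 were measured, 15 were higher as deposited and 8 after quantile normalization, with medians of 0.17 and -0.16. Of all 22206 probe sets 14460 and 10723 were higher, with medians of 0.18 and -0.02. As deposited limma called 0 of them, and 0 had an unadjusted limma p under 0.05. After quantile normalization 0 were called, and 0 were higher and 2 lower at that unadjusted p. Of all 22206 probe sets 1043 and 937 were. As deposited both clones were above both controls in 4 and below in 0, where 27.8% and 11.7% of all probe sets were. After quantile normalization these counts were 2 and 7, where the shares were 19.2% and 21.3%. Limd1, a LIM protein related to Ajuba, had a difference of 0.82 (SE 0.37), Vgll3, a TEAD cofactor, 0.74 (SE 0.39), Rassf1, an activator of the Hippo kinases, 0.72 (SE 0.46) and Nf2, which encodes merlin, an upstream Hippo activator, 0.66 (SE 0.41), with limma adjusted p from 0.569 to 0.708. After quantile normalization these differences were 0.41, 0.29, 0.30 and 0.26 in the same order. Of these genes, Limd1 and Nf2 alone then had both clones above both controls. Wwtr1, which encodes the YAP homologue TAZ, and Tead1, both named here for their roles, differed by 0.14 and -0.06. Wwtr1 stood at 11.16 in clone 1 and 11.36 in clone 2, against 11.26 in MOCK and 10.97 in WT, so YAP and TAZ transcripts were at similar deposited values in all 4 arrays. After quantile normalization Wwtr1 differed by -0.30 and, as for Yap1, both clones were below both controls.

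Genes of the fetal and regenerative epithelium, 18 measured of 23 listed, went both ways. As deposited 13 were higher, with a median of 0.27 against 0.18 for all probe sets, and 6 (33.3%) had both clones above both controls, near the 27.8% of all probe sets. After quantile normalization 9 were higher, with a median of -0.04. Both clones were then above both controls in 5 and below them in 4, where 19.2% and 21.3% of all probe sets were. Limma called 0. At an unadjusted limma p under 0.05, 3 were higher and 0 lower, where 7.54% and 1.22% of all probe sets were. Without MOCK the median was 0.70 and without WT it was 0.06. Gja1, the gap junction protein connexin 43 and a fetal gut marker, stood at 14.66 in clone 1 and 13.37 in clone 2, against 15.13 in MOCK and 14.71 in WT, a difference of -0.90 (SE 0.47, limma adjusted p = 0.636). Hmga2, a chromatin protein of fetal tissue, stood at 5.82 in clone 1 and 7.04 in clone 2, against 5.35 in MOCK and 5.13 in WT. Of these values clone 2 alone was above the 75th percentile of the negative controls. Anxa8 had signals of 6.42 in clone 1 and 6.36 in clone 2, against 5.67 in MOCK and 4.78 in WT, values that lie around the background. Ly6e, also on this list, was far above background, at 17.07 in clone 1 and 17.15 in clone 2, against 16.67 in MOCK and 15.50 in WT. Its difference was 1.02 (SE 0.45, limma adjusted p = 0.556), or 0.71 after quantile normalization. In both scalings both clones of Ly6e were above both controls. Krt7, Il1rn and Msln, further markers of the list named for their roles, were at or near background, with values from 3.89 to 6.57.

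Crypt stem cell genes, the counterpart of the regenerative state, gave 11 higher of 13 measured, with a median of 0.20, or 0.08 after quantile normalization. As deposited 14460 of all 22206 probe sets were higher, with a median of 0.18. Of the 13 genes, 7 were at background on all arrays. Limma called 0. At an unadjusted limma p under 0.05, 1 was higher and 1 lower, where 7.54% and 1.22% of all probe sets were. Msi1, an RNA-binding protein of stem and progenitor cells, stood at 8.31 in clone 1 and 9.18 in clone 2, against 6.80 in MOCK and 6.34 in WT, a difference of 2.17 (SE 0.43, limma adjusted p = 0.121) that was 1.79 after quantile normalization. Bmi1, a Polycomb protein, and Hopx differed by 0.40 and 0.35 with overlapping groups, and Prom1 stood at 4.40 in clone 1 and 3.47 in clone 2, against 5.35 in MOCK and 4.67 in WT, at background.

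Of the 12 ERBB ligands, receptors and sheddases around Ereg, 7 were at background on all arrays. Over all 12, 5 were higher and 7 lower, with a median of -0.12, or -0.17 after quantile normalization, values that include the genes at background. Limma called 0. At an unadjusted limma p under 0.05, 1 was higher and 0 lower, where 7.54% and 1.22% of all probe sets were. Btc, which encodes betacellulin, stood at 6.93 in clone 1 and 7.83 in clone 2, against 6.0 in MOCK and 6.31 in WT, a difference of 1.22 (SE 0.42, limma adjusted p = 0.435). The MOCK value of Btc was below the 75th percentile of the negative controls. Nrg1, which encodes neuregulin 1, a ligand of ERBB3 and ERBB4, stood at 13.41 in clone 1 and 14.09 in clone 2, against 13.06 in MOCK and 12.66 in WT. The Nrg1 difference was 0.89 as deposited and 0.40 after quantile normalization, when the groups overlapped. Erbb2 stood between 8.88 and 9.17 on all arrays. Egfr, the receptor of epiregulin, named here for that role, was at background with values from 4.15 to 4.44.

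The relatives of Ccn1 and Anxa1 were also read. Ccn3 stood at 10.82 in clone 1 and 9.38 in clone 2, against 7.95 in MOCK and 8.56 in WT, a difference of 1.84 (SE 0.50, limma adjusted p = 0.308). Ccn5 stood at 8.75 in clone 1 and 10.83 in clone 2, against 7.85 in MOCK and 7.14 in WT, a difference of 2.30 (SE 0.60, limma adjusted p = 0.280). Both were higher in both clones, by more than Ccn1, and Ccn4 and Ccn6 were at or near background. After quantile normalization the differences were 1.40 for Ccn3 and 1.91 for Ccn5. The groups of Ccn3 then nearly met, with clone 2 at 9.05 and WT at 8.97. Limma called 0 of these 4 relatives. At an unadjusted limma p under 0.05, 2 were higher and 0 lower, where 7.54% and 1.22% of all probe sets were. Of 11 other annexins 8 were higher, with a median of 0.46, or 0.05 after quantile normalization and 0.017 without WT. As deposited 14460 of all 22206 probe sets were higher, with a median of 0.18. Limma called 0 of the 11. At the same unadjusted p, 2 were higher and 0 lower. Anxa11 had a difference of 0.93 (SE 0.40) and Anxa7 of 0.61 (SE 0.39). After quantile normalization these were 0.47 and 0.18, with overlapping groups. Anxa6 split within each group, at 4.46 in clone 1 and 8.45 in clone 2, against 7.02 in MOCK and 4.61 in WT.

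Ly6a could not be read, but 10 relatives of it were. Ly6 genes encode small lipid-anchored surface proteins. Ly6c1 stood at 11.19 in clone 1 and 10.30 in clone 2, against 8.02 in MOCK and 9.07 in WT, a difference of 2.20 (SE 0.48, limma adjusted p = 0.171). Ly6c2 stood at 7.41 in clone 1 and 6.52 in clone 2, against 5.59 in MOCK and 5.69 in WT, a difference of 1.32 (SE 0.42, limma adjusted p = 0.377). Both control values of Ly6c2 were below the 75th percentile of the negative controls, so its difference rests in part on background values. Ly6c1 and Ly6c2 are near-identical copies, and their signals may not be separable. Ly6e stood at 17.07 in clone 1 and 17.15 in clone 2, against 16.67 in MOCK and 15.50 in WT. In all 3 genes the clones were above the controls, and 7 of the 10 relatives were at background on all arrays. Limma called 0 of the 10. At an unadjusted limma p under 0.05, 3 were higher and 1 lower, where 7.54% and 1.22% of all probe sets were. The lower gene was Gpihbp1, at 4.79 in clone 1 and 4.76 in clone 2, against 5.54 in MOCK and 6.07 in WT, which are all background values.

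Several Ly6 genes respond to interferon, and interferon-stimulated genes were read beside them. The median over their 14 measured genes was 0.24 for clone 1 minus the control mean and 3.03 for clone 2, or -0.06 and 2.52 after quantile normalization. Their summed signal was 15.80 in clone 1 and 17.53 in clone 2, against 15.54 in MOCK and 14.74 in WT on the log2 scale. Usp18, a brake on interferon signalling, stood at 10.47 in clone 1 and 14.54 in clone 2, against 10.10 in MOCK and 9.81 in WT. Limma called 0 of the 14. At an unadjusted limma p under 0.05, 6 were higher and 0 lower, where 7.54% and 1.22% of all probe sets were. The part of interferon signalling in the Ly6 and Clu values was not tested.

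Ankrd1 and Ccn1 are also targets of the serum response factor SRF, and Ccn1 behaves as an immediate early gene. Among 12 SRF and cytoskeletal targets 11 were higher, with a median of 0.58, or 0.32 after quantile normalization. As deposited 14460 of all 22206 probe sets were higher, with a median of 0.18. Of the 12, 5 were at background on all arrays. By clone, the median was 0.15 for clone 1 and 0.89 for clone 2, or -0.03 and 0.49 after quantile normalization. Limma called 0. At an unadjusted limma p under 0.05, 3 were higher and 0 lower, where 7.54% and 1.22% of all probe sets were. After quantile normalization 1 and 0 were, where 1043 and 937 of all 22206 were. Fhl2, a LIM cofactor, stood at 12.07 in clone 1 and 11.91 in clone 2, against 10.60 in MOCK and 10.33 in WT, a difference of 1.53 (SE 0.37, limma adjusted p = 0.231). Vcl, which encodes vinculin, and Tagln2 differed by 1.05 (SE 0.38) and 1.08 (SE 0.41). Among 15 immediate early genes 9 were higher, with a median of 0.21, or -0.24 after quantile normalization, beside 0.18 and -0.02 for all probe sets. Limma called 0 of the 15. At an unadjusted limma p under 0.05, 1 was higher and 1 lower as deposited, beside the same 7.54% and 1.22%. Egr2 stood at 9.24 in clone 1 and 10.09 in clone 2, against 7.06 in MOCK and 8.04 in WT, while Fosb stood at 8.33 in clone 1 and 8.15 in clone 2, against 8.96 in MOCK and 9.88 in WT. Fos was at 8.93 in clone 1 and 8.55 in clone 2, against 8.79 in MOCK and 10.84 in WT, so WT stood apart from the other 3 arrays.

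**Figure D4:**
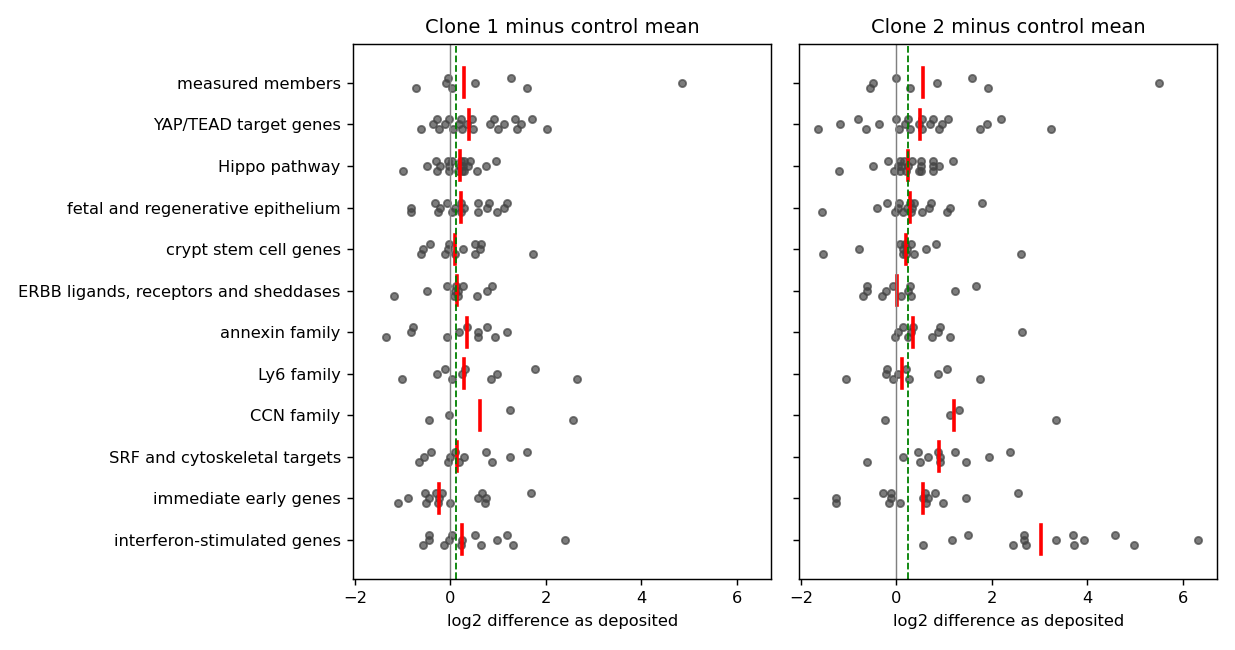
Deposited log2 difference of clone 1 (left) and clone 2 (right) from the mean of MOCK and WT (x axis), with 1 point per measured gene, gene lists on the y axis, a red bar at each list's median and a dashed line at the median over all probe sets. In the top row the rightmost point is Clu, and the interferon-stimulated genes centre on 0.24 in clone 1 and 3.03 in clone 2.

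The genes whose pattern over the 4 arrays was most like that of Clu were found by the Euclidean distance, in log2 units, between profiles centred on their own means, over 18543 other named genes. The nearest were Zfp981 at a distance of 1.08, Zfp980 at 1.57, Zfp600 at 1.61, Fam180a at 1.72, Cln3 at 1.84 and Etl4 at 1.86. These 6 were also the nearest 6 after quantile normalization. The controls of Zfp981 and Etl4 were below the median of the negative controls, at 4.87 in MOCK and 4.85 in WT for Zfp981 and at 3.14 in MOCK and 4.19 in WT for Etl4, so their distances rest in part on background values. Cln3, the lysosomal membrane protein lost in a childhood neurodegenerative disease, stood at 7.98 in clone 1 and 10.35 in clone 2, against 4.90 in MOCK and 5.68 in WT, so its controls lay around background. Among the members Ankrd1 ranked 138 and Amotl2 ranked 296 by this distance, and the ranks of the other members detected above background ran from 3122 for Ccn1 to 16246 for Ereg. With 4 arrays, genes that separate the clones from the controls by a similar amount take similar distances.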

How the data were processed

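Total RNA from 4 MC38 samples was hybridised to Clariom S mouse arrays. The authors processed the arrays with the Transcriptome Analysis Console, per the submitters' processing notes, and the deposited values are normalized log2 signals, a scale taken from the range of the values. The version, normalization method, filters and genome build of the annotation were not stated in the labels or files. Of 28846 features 6640 were controls, and 22206 probe sets entered the test, of which 19572 had 1 symbol in the platform annotation. Where a gene had several probe sets, the one with the highest mean was used.

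Knockout was set against control with limma (version 3.58.1, R 4.3.3), lmFit and eBayes, with Benjamini-Hochberg adjustment over all probe sets and calls at an adjusted p under 0.05. The number of arrays, 2 in each group, limits the precision. The members and the 17 other gene lists were chosen with earlier results of these data known. Per list, the text names up to 4 genes with the largest absolute difference whose highest signal exceeds the negative controls' median, any called gene, and the 6 genes nearest to Clu; genes outside this rule are marked. Alternatives were quantile normalization, median centring, eBayes with a robust trend, filters on mean signal (at its median and its 25th percentile), and leaving out each array.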

Additional observations from a re-analysis of the deposited data

How the results depend on the processing

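No paired analysis was possible because the labels give no replicate numbers shared between the knockout and control samples. Every measured member had a single probe set, so the use of every probe set of a gene gave no further value. Limma called 9 probe sets as deposited, 1 after quantile normalization, 196 when probe sets under the median of mean signal were dropped, 125 when those under the 25th percentile were dropped and 340 with eBayes trend and robust. With each array left out the count ran from 0 to 529, namely 1 without MOCK, 0 without WT, 529 without clone 1 and 149 without clone 2. The count of members called ran from 0 to 1 over the same fits, as Clu lost its call without MOCK and without WT. Clu was called in each of the other settings run.

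Quantile normalization moved the difference by more than the spread between replicates for Clu (to 4.74), Amotl2 (1.01), Ereg (-0.75) and Yap1 (-0.28). The median over the 8 members was 0.42 as deposited and -0.059 after quantile normalization. Among list medians, quantile normalization gave -0.28 for the members other than Clu, 0.18 for the YAP and TEAD targets, -0.16 for the Hippo pathway, 0.077 for crypt stem cell genes, 0.048 for annexins and -0.24 for immediate early genes. Median centring gave 0.24 for the YAP and TEAD targets, 0.066 for crypt stem cell genes and -0.26 for ERBB genes. Median centring subtracts a constant from each array, so it moved every difference by the same amount, as for Clu from 5.18 to 5.04. The list medians moved by that amount too. Quantile normalization gives every array the same distribution, and the cause of the changes it made was not tested.

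With 1 array left out, list medians ran from 0.31 to 0.58 for the YAP and TEAD targets, 0.064 to 0.70 for fetal and regenerative genes, 0.10 to 0.20 for crypt stem cell genes, -0.041 to 0.13 for ERBB genes, -0.35 to 0.13 for clusterin receptors and secreted chaperones, 0.62 to 1.25 for the CCN family, 0.017 to 0.76 for annexins, 0.12 to 0.56 for the Ly6 family, 0.15 to 0.99 for SRF targets and -0.24 to 0.55 for immediate early genes. The differences of Clu, Ankrd1, Amotl2 and Ccn1 stayed above 0 and that of Ereg below 0 as each array was left out, while that of Anxa1 ran from -0.43 to 0.38. In these fits the lone array of a group is assumed to vary like the other group.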

Other observations

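Of 12 receptors of clusterin and other secreted chaperones, 9 were at or below the 75th percentile of the negative controls on all arrays. Over all 12, 5 were higher and 7 lower in the knockout, with a median of -0.07 log2 units that includes those background values. None of the 12 was called by limma (0), and 0 had an unadjusted p under 0.05. Vldlr, a lipoprotein receptor that binds clusterin, stood at 12.43 in clone 1 and 12.39 in clone 2, against 12.12 in MOCK and 10.85 in WT, with both clones above both controls under both scalings, and Lrp8, its close relative, at 10.76 in clone 1 and 9.35 in clone 2, against 10.45 in MOCK and 10.11 in WT. Apod, which encodes apolipoprotein D, a secreted lipid carrier, stood at 14.53 in clone 2 and at 9.76 in clone 1, against 10.09 in MOCK and 10.32 in WT, so clone 2 alone stood apart. Dcn, which encodes the matrix proteoglycan decorin, stood at 8.94 in clone 1 and 11.18 in clone 2, against 12.95 in MOCK and 13.61 in WT (limma adjusted p = 0.121).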
